A study of Homo sapiens with 4 samples.

Results

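Aminopeptidase N, the product of ANPEP, was examined together with 9 other genes of enzymes that shorten or cleave peptides, DPP4, ENPEP, MME, LNPEP, ERAP1, ERAP2, NPEPPS, RNPEP and LAP3. They were found by Ensembl gene ID in a table of 17041 genes, where 9 of the 10 had a value, and MME was not analysed here. ANPEP was chosen by its expression values, which differed between the groups compared below, so its difference is described and not tested. The other genes stand beside it by the kind of enzyme they encode, and they were put together with earlier results of these data known.

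The A549 line was derived from a lung adenocarcinoma, and poly-A selected RNA of it was sequenced in 4 libraries that share 1 batch in the labels. RBM10 knockdown cells gave 2 of them: the cells had been transduced with 1 lentiviral shRNA against RBM10, a splicing regulator, and selected with puromycin at 1 µg/mL for 10 to 14 days, per the labels. RBM10 wild-type cells gave the other 2, and for these the labels give neither a control construct nor puromycin, so that RBM10 loss, transduction and selection cannot be told apart here. Nothing says that the replicates came from separate cultures, and the p-values below then rest on a spread between 4 libraries that could be technical.

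Aminopeptidases remove amino acids one at a time from the amino-terminal end of peptides. On the cell surface, aminopeptidase N (also known as CD13), dipeptidyl peptidase 4 (CD26), aminopeptidase A and neprilysin face the extracellular space and trim or inactivate peptide hormones and chemokines. Inside the cell, ERAP1 and ERAP2 trim peptides in the endoplasmic reticulum before these load onto MHC class I, and the cytosolic enzymes recycle peptides released by the proteasome. In lung, aminopeptidase N is known from myeloid cells and fibroblasts and is also found on some carcinoma cells.

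Of the 10 genes, 7 encode a coding stretch with the zinc site of the M1 metallopeptidase family, a pair of histidines and a glutamate that hold the zinc ion, and a catalytic glutamate between the histidines. These 72 bases, which encode 24 residues, are shown because they are what unites most of the group in sequence, and they come from GENCODE v29 transcripts (hg38), 5′ to 3′, with the codons of the 4 residues in capitals:
ANPEP: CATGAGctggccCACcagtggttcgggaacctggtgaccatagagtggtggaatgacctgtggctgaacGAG
ENPEP: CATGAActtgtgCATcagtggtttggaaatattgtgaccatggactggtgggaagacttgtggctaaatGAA
LNPEP: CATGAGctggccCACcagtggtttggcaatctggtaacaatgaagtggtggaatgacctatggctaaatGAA
ERAP1: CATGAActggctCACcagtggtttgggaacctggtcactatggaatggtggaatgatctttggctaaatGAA
ERAP2: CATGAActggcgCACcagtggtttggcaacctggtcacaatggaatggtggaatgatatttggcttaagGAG
NPEPPS: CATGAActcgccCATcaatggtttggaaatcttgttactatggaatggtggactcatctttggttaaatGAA
RNPEP: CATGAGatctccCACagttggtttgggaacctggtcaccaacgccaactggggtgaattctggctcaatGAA

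Over the 21 pairs of these stretches, identity ran from 62.5% (NPEPPS and RNPEP) to 90.3% (ERAP1 and ERAP2), with a median of 77.8%. The ANPEP stretch was closest to that of LNPEP, at 84.7%, and shared 68.1% with that of RNPEP. The stretch lay across exons 6 and 7 in ANPEP (minus strand, chr15:89803949-89804270), and within exon 5 alone in RNPEP (plus strand, chr1:201997437-201997508). DPP4, a serine peptidase, and LAP3, a leucine aminopeptidase of another metallopeptidase family, held neither this stretch nor its shorter first part, and MME held only the shorter part.

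Expression was read as RPKM, reads scaled to gene length and library depth. Values of a gene were whole multiples of a step, which is what the smallest unit of reads adds in that gene and library, and the ratio of the steps gave library depths of 84.5% and 95.6% in knockdown replicates 1 and 2 and of 99.0% and 100% in wild-type replicates 1 and 2, relative to the deepest. In the 1302 genes that showed it, a gene without reads held a small value shared by the libraries. The step was set so that the lowest value above it counts as 2 steps, which is a definition and not an observation. The number of steps is thus given below as a measure of the reads behind a value, and the true number of reads could be lower by 1. RBM10 was at 11.6 and 10.9 RPKM in knockdown and at 35.5 and 40.8 RPKM in wild type, which left 29.5% of the wild-type mean. Epithelial keratins were high in every library, with KRT18 between 890 and 1855 RPKM, and the leukocyte marker PTPRC and the endothelial markers VWF, CDH5 and KDR had no value to analyse.

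ANPEP mRNA was at 10.6 and 9.86 RPKM in the knockdown libraries, against 1.09 and 1.35 RPKM in the wild-type libraries. Both knockdown libraries lay far above both wild-type libraries, and the knockdown mean of 10.2 ± 0.518 RPKM was 8.40 times the wild-type mean of 1.22 ± 0.182 RPKM (SD, n = 2 each). On the log2(RPKM + 1) scale, which understates changes of genes at low levels, the difference was 2.34, and with a pseudocount of 0.1 it was 2.98. Of 10182 tested genes, 10 had a larger positive difference, a high rank that follows from how ANPEP was chosen. In bulk RNA, more cells with ANPEP and more ANPEP RNA per cell cannot be told apart.

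The ANPEP values rested on 1535 and 1617 steps in knockdown and on 185 and 231 steps in wild type. Taken as counts, these have exact 95% Poisson intervals of 1459 to 1614 and 1539 to 1698 in knockdown and of 159 to 214 and 202 to 263 in wild type, which cover counting error only. The spread between replicates was 5.07% of the mean in knockdown and 14.9% in wild type, against counting errors of 2.49% to 2.55% and 6.58% to 7.35%. More genes were below ANPEP in knockdown, at 79.6% and 78.6% of all genes, than in wild type, at 44.7% and 48.4%.

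**Figure D1:**
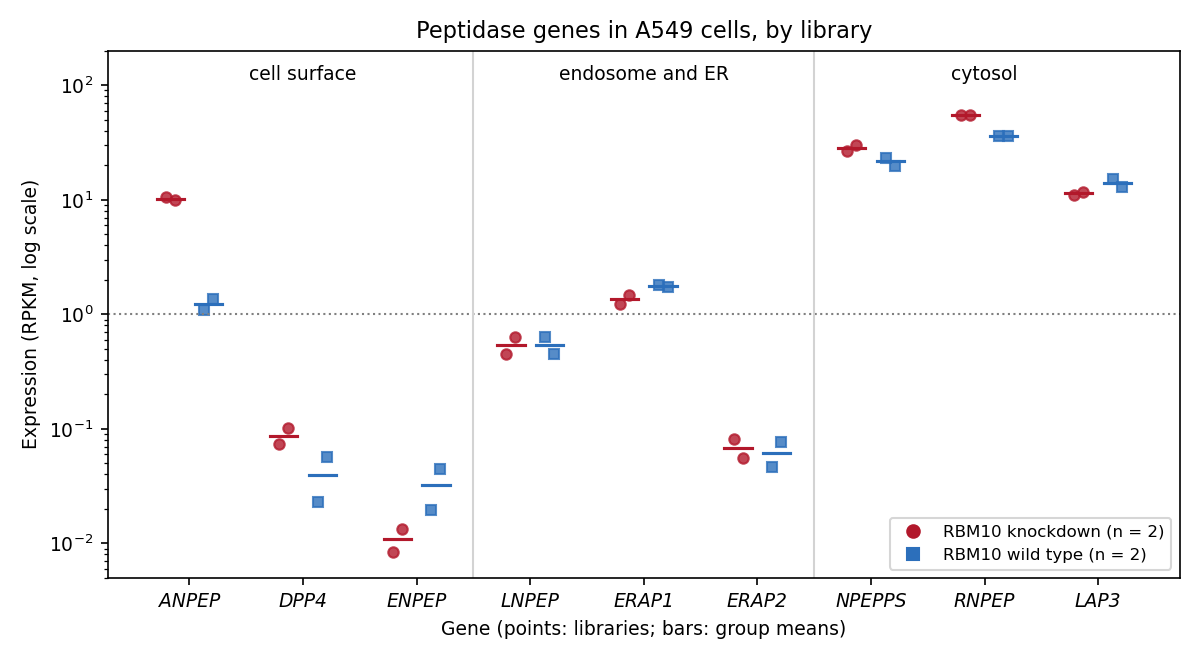
Expression of 9 peptidase genes in RPKM (log axis), with points for the libraries, knockdown left of wild type, and bars for the group means; the dotted line marks 1 RPKM. ANPEP knockdown points lie near 10 RPKM, above the wild-type points near 1 RPKM, and the ENPEP point of knockdown replicate 1 is the value of a gene without reads.

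ANPEP lies on the minus strand of chromosome 15 (89784889 to 89815401, hg38), with no annotated gene overlapping it. RefSeq gives it 2 transcription starts, 8224 bases apart, which are described as a distal start used in myeloid cells and fibroblasts and a proximal start used in epithelium of gut and kidney. Both windows from 250 bases before to 50 bases after the start are shown because the table holds 1 value for the gene and cannot say which start was in use (RefSeq, GRCh38.p14, minus strand, 5′ to 3′). Capitals mark GGAA, the core of ETS factor sites, on either strand. The distal window is chr15:89814803-89815102 and the proximal window chr15:89806579-89806878.
distal: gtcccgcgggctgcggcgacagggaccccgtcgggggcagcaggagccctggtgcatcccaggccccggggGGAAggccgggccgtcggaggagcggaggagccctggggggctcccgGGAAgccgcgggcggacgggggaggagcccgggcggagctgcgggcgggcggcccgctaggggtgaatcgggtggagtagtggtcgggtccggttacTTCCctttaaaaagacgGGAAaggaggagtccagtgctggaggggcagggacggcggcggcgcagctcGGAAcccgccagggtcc
proximal: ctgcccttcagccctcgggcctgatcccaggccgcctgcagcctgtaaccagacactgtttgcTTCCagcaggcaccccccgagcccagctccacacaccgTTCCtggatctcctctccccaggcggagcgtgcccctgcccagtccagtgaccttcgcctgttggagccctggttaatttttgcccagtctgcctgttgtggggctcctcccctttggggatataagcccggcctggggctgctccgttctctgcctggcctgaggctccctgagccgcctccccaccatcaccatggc

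GGAA stood 5 times in the distal and 2 times in the proximal window, counted on both strands, and 95.5% of 35116 such windows hold it. The GC content was 75% in the distal window and 65.3% in the proximal one. A match of letters is a description and not a bound site.

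Among factors described at the distal promoter, ETS2 rose and ETS1 fell, both ETS transcription factors. Of 4 tested factors described at either promoter, 1 was called higher and 1 lower, against 15.3% and 7.03% over all tested genes. With means of 0.956 RPKM in knockdown and 1.63 RPKM in wild type, ETS1 entered the test only through the group where it was high. ETS2 was at 21.2 and 21.9 RPKM in knockdown and at 11.1 and 11.0 RPKM in wild type (log2 change 0.91, SE 0.10; limma, BH adjusted p = 0.000224), and ETS1 was at 0.835 and 1.08 RPKM in knockdown and at 1.75 and 1.51 RPKM in wild type (log2 change -0.43, SE 0.12; limma, adjusted p = 0.0289). The call of ETS1 was lost with no filter on low values, without wild-type replicate 1 and without knockdown replicate 1 (limma, adjusted p = 0.0936, 0.144 and 0.137). MYB and MAF stayed below 0.13 RPKM in all 4 libraries.

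Among 11 other genes with a value within 250 kb of ANPEP, 5 were tested and 1, KIF7, rose, which is near the 15.3% called higher over all 10182 tested genes. KIF7, a kinesin of the hedgehog pathway, was at 4.73 and 4.66 RPKM in knockdown and at 2.79 and 3.16 RPKM in wild type (log2 change 0.52; limma, adjusted p = 0.0099), and it did not pass with no filter on low values (limma, adjusted p = 0.0504). The closest tested neighbours were MESP1, at 2.05 and 1.70 RPKM in knockdown and 1.02 and 1.67 RPKM in wild type, and AP3S2, at 3.28 and 3.94 RPKM in knockdown and 3.61 and 3.27 RPKM in wild type. Neither passed (limma, adjusted p = 0.173 and 0.795). This window was chosen after the members' values were known.

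**Figure D2:**
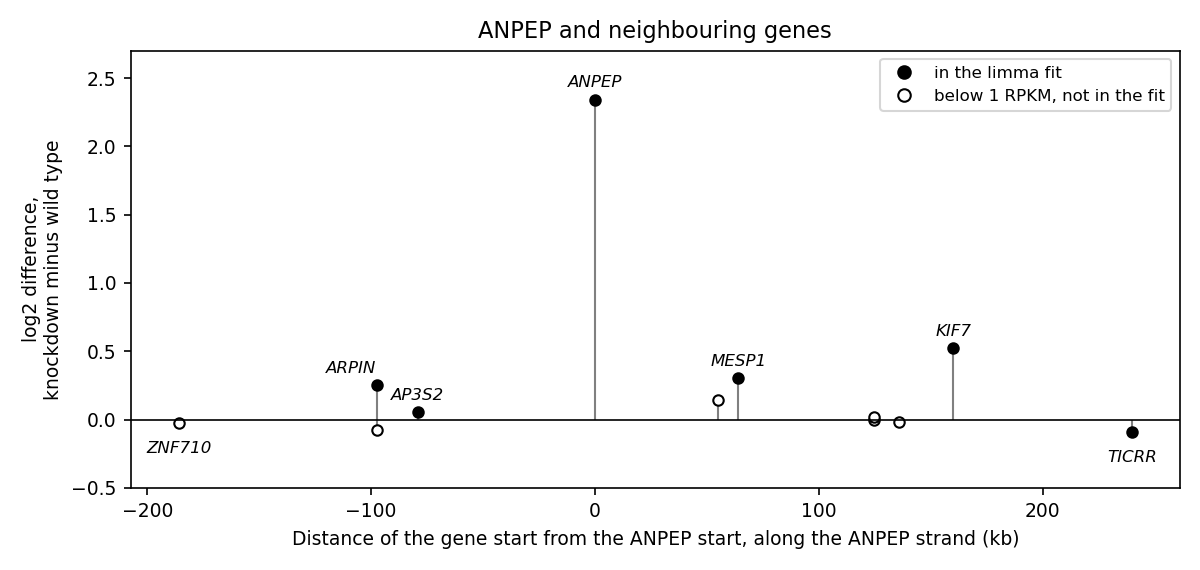
Difference of knockdown minus wild type on the log2(RPKM + 1) scale (vertical axis) for ANPEP and 11 neighbouring genes, by distance of their starts from the ANPEP start in kb; filled points were in the limma fit and open points had group means below 1 RPKM. ANPEP stands at 2.34, and the next highest gene, KIF7, at 0.52.

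The 5 tested genes whose 4 values lay closest to those of ANPEP, by Euclidean distance on log2(RPKM + 1), were CGB8, CGB1, NKAIN4, UGT1A7 and LTBP2, at distances of 0.287, 0.383, 0.488, 0.563 and 0.707. CGB8, of the chorionic gonadotropin beta cluster, was at 9.48 and 9.05 RPKM in knockdown and at 1.33 and 1.61 RPKM in wild type. CGB8 and CGB1 are near-identical genes that may share reads. The likeness is over 4 libraries in 2 groups and describes only that these genes have a similar level and a similar step between the groups.

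The other cell surface genes were at very low levels in all libraries. DPP4, which removes dipeptides from incretins and chemokines, was at 0.0739 and 0.101 RPKM in knockdown and at 0.0229 and 0.0568 RPKM in wild type. The groups did not overlap. The values rested on 11 and 17 steps in knockdown, with 95% Poisson intervals of 5.49 to 19.7 and 9.90 to 27.2, and on 4 and 10 steps in wild type, with intervals of 1.09 to 10.2 and 4.80 to 18.4. Below 1 RPKM in both groups, DPP4 was not tested.

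ENPEP, aminopeptidase A, which removes the first residue of angiotensin II, was at 0.00844 and 0.0134 RPKM in knockdown and at 0.0194 and 0.0448 RPKM in wild type. Knockdown replicate 1 held the value of a gene without reads, knockdown replicate 2 held 2 steps, and the wild-type libraries held 3 and 7 steps. Both knockdown values were below both wild-type values, on few reads, and ENPEP was not tested. Over all 17041 genes, both knockdown libraries were above both wild-type libraries in 35.8% and below them in 20.3%. Of 16 listed genes of peptide ligands and their receptors, 9 had a value and 2 were tested. Neither passed, against 15.3% called higher and 7.03% lower over all tested genes. EDN1, endothelin 1, was at 9.86 and 11.6 RPKM in knockdown and at 11.5 and 10.2 RPKM in wild type (limma, adjusted p = 0.935). The incretin gene GIP was at 19.6 and 17.3 RPKM in knockdown and at 13.1 and 17.2 RPKM in wild type (limma, adjusted p = 0.172). GIP passed as higher without wild-type replicate 2 (log2 change 0.46; limma, adjusted p = 0.0257), and its difference was 0.10 without wild-type replicate 1.

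LNPEP, ERAP2 and ERAP1 lie side by side on chromosome 5, with 67838 bases between ERAP1 and ERAP2 and 15677 bases between ERAP2 and LNPEP. None of the 3 showed a difference past the test, though only ERAP1 reached the level needed to be tested. ERAP1 was at 1.23 and 1.47 RPKM in knockdown and at 1.81 and 1.74 RPKM in wild type, which is 76.2% of the wild-type mean (log2 difference -0.24, SE 0.11; limma, BH adjusted p = 0.162). Both knockdown values were below both wild-type values, on 292 and 395 steps in knockdown and 502 and 489 steps in wild type. Under quantile normalization ERAP1 passed as lower (log2 change -0.39; limma, adjusted p = 0.0325). ERAP1 overlaps CAST on the opposite strand, which was at 43.6 and 51.5 RPKM in knockdown and at 37.7 and 32.3 RPKM in wild type. CAST was called higher (log2 change 0.43; limma, adjusted p = 0.028), in the direction opposite to ERAP1. Whether the counting used strand is not given in the sources used here.

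ERAP2 was at 0.0814 and 0.0559 RPKM in knockdown and at 0.0463 and 0.0764 RPKM in wild type. The groups overlapped, and the 4 values rested on 9 and 7 steps in knockdown and 6 and 10 steps in wild type. LNPEP, a membrane aminopeptidase of endosomes that also cleaves oxytocin and vasopressin, was at 0.448 and 0.634 RPKM in knockdown and at 0.629 and 0.449 RPKM in wild type. Its group means were almost the same, at 0.541 ± 0.132 and 0.539 ± 0.128 RPKM (knockdown, then wild type; SD, n = 2 each). LNPEP was not shallow, with 204 and 327 steps in knockdown and 336 and 242 steps in wild type. Its replicates differed by 24.4% and 23.7% of the group means (SD), against counting errors of 5.46% to 7.0%. LNPEP, below 1 RPKM in both groups, was not tested.

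The cytosolic genes were the most abundant of the 9. RNPEP, aminopeptidase B, which removes basic residues, was at 55.2 and 55.1 RPKM in knockdown and at 36.0 and 35.7 RPKM in wild type. It rose 1.54-fold with closely matching replicates (log2 change 0.61, SE 0.09; limma, BH adjusted p = 0.00148), and it passed the test in all 10 alternative settings, with adjusted p between 0.00129 and 0.0141. NPEPPS, the puromycin-sensitive aminopeptidase, was at 26.6 and 30.3 RPKM in knockdown and at 23.3 and 19.9 RPKM in wild type. It rose 1.32-fold (log2 change 0.38, SE 0.12; limma, adjusted p = 0.0401), but the call held in 3 of 10 alternative settings. It was lost without knockdown replicate 2 and without wild-type replicate 2 (log2 change 0.29 and 0.27; limma, adjusted p = 0.266 and 0.158), and under quantile normalization, TMM-like factors, limma without trend, the replicate block and no filter on low values (adjusted p = 0.0509, 0.073, 0.0508, 0.0854 and 0.11).

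The NPEPPS enzyme is inhibited by puromycin, the drug in which the knockdown cells had been selected. Whether the drug bears on the level of NPEPPS mRNA was not tested. A pair of loci named NPEPPSP1, which carry copies of part of NPEPPS, also rose, and the alternative settings are not reported for them. The less abundant was at 8.63 and 9.33 RPKM in knockdown and 6.87 and 5.49 RPKM in wild type, and the more abundant at 26.4 and 28.4 RPKM in knockdown and 21.4 and 15.7 RPKM in wild type (limma, adjusted p = 0.0223 and 0.0195). How reads were split among the 3 loci is not given in the sources used here, so the level of NPEPPS is uncertain. NPEPPS also overlaps an annotated gene on the opposite strand, AC025682.1, whose level is not reported here. RNPEP overlaps ELF3-AS1 on the opposite strand, which was at 0.822 and 1.15 RPKM in knockdown and 0.594 and 0.374 RPKM in wild type, far below RNPEP.

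LAP3, cytosolic leucine aminopeptidase, was at 11.0 and 11.8 RPKM in knockdown and at 15.2 and 12.8 RPKM in wild type. Both knockdown values were below both wild-type values, at 81.3% of the wild-type mean, and the difference did not pass (log2 difference -0.27, SE 0.12; limma, adjusted p = 0.121). It passed as lower with TMM-like factors (log2 change -0.35; limma, adjusted p = 0.0415). The values rested on 1947 and 2352 steps in knockdown and 3148 and 2684 steps in wild type.

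Of the 8 genes other than ANPEP that had a value, 4 reached a group mean of 1 RPKM and were tested, 2 of them were called higher and 0 lower, and the other 2 had unadjusted p of 0.0613 (ERAP1) and 0.0399 (LAP3). Over all 10182 tested genes, 15.3% were called higher and 7.03% lower. Both knockdown libraries were above both wild-type libraries in 34.3% of tested genes and below them in 27.3%, so that groups without overlap are common in these data. The median log2 difference of the 4 was 0.07, against 0.02 over all tested genes.

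**Figure D3:**
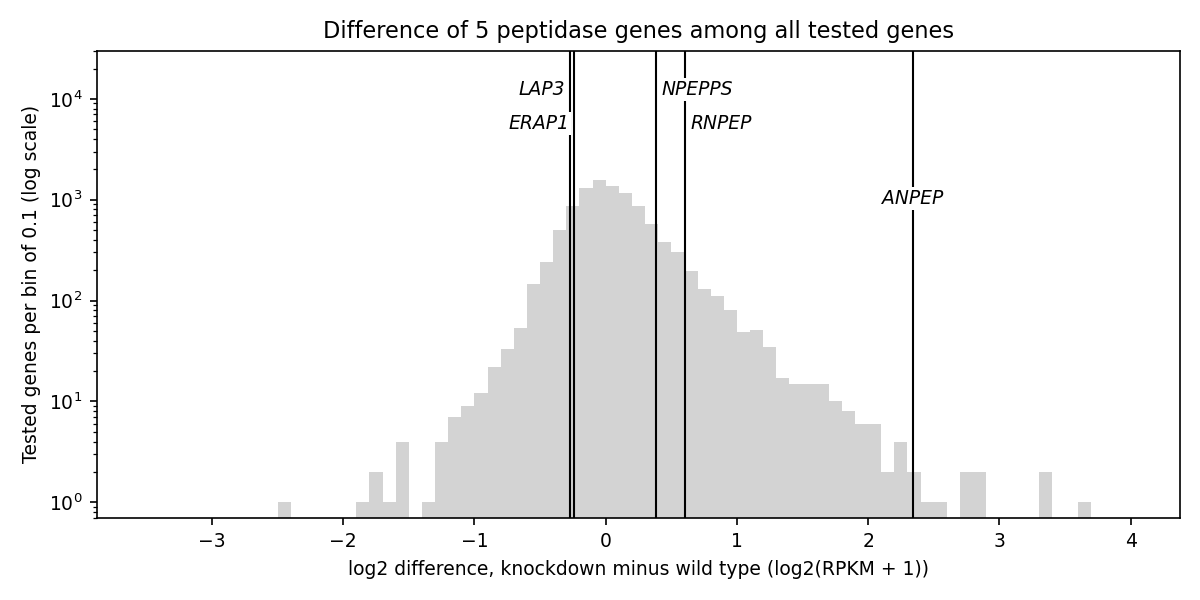
Histogram of the log2(RPKM + 1) difference, knockdown minus wild type, over 10182 tested genes, with the number of genes per bin on a log axis and vertical lines at the 5 peptidase genes of 1 RPKM or more. ANPEP, which was chosen by its difference, lies at 2.34 in the sparse right tail. ERAP1, LAP3, NPEPPS and RNPEP lie between -0.27 and 0.61.

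In knockdown, the order of the levels was RNPEP, NPEPPS, LAP3, ANPEP, ERAP1, LNPEP, DPP4, ERAP2 and ENPEP, with only DPP4 and ERAP2 overlapping their neighbour in the order. In wild type the order was RNPEP, NPEPPS, LAP3, ERAP1, ANPEP, LNPEP, ERAP2, DPP4 and ENPEP, and ERAP2, DPP4 and ENPEP overlapped in turn. ANPEP was thus below ERAP1 in wild type and above it in knockdown, and it made up 10.1% and 9.02% of the summed RPKM of the 9 genes in knockdown and 1.39% and 1.87% in wild type. The 3 cytosolic genes made up 88.2% and 88.9% of that sum in knockdown and 95.4% and 94.8% in wild type. Only their share was lower in knockdown, in a sum that includes ANPEP, which was chosen by its difference. Their own summed level was higher, at 92.8 and 97.2 RPKM in knockdown and 74.5 and 68.4 RPKM in wild type.

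To set these genes among their relatives, 74 other peptidase genes of 6 lists were read from the same fit, of which 59 had a value and 43 were tested. In knockdown, 4 rose, all of them cathepsins, and 4 fell, while 35 did not pass, so that 9.3% were called in each direction, against 15.3% higher and 7.03% lower over all tested genes. Their median log2 difference was 0.08. Of the 4 that rose, CTSK entered the test only through knockdown, the group where it was high. The lists were chosen with earlier results of these data known.

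The cathepsins, proteases of the lysosome, had 4 of 9 tested members higher and 0 lower, against 15.3% and 7.03% of all tested genes. CTSB, cathepsin B, was at 125 and 114 RPKM in knockdown and at 57.4 and 58.4 RPKM in wild type (log2 change 1.03, SE 0.09; limma, BH adjusted p = 7.16e-05). CTSK, cathepsin K, which cleaves collagen, was at 1.46 and 1.78 RPKM in knockdown and at 0.41 and 0.677 RPKM in wild type (limma, adjusted p = 0.00246). With means of 1.62 RPKM in knockdown and 0.544 RPKM in wild type, CTSK entered the test only through the group where it was high. It also passed with no filter on low values (limma, adjusted p = 0.0355). CTSF was at 25.3 and 23 RPKM in knockdown and at 13.6 and 15.6 RPKM in wild type (limma, adjusted p = 0.00206). These 3 passed in all 10 alternative settings, and CTSC, cathepsin C, at 6.11 and 5.97 RPKM in knockdown and 4.09 and 3.92 RPKM in wild type (limma, adjusted p = 0.0107), passed in 9 and not without knockdown replicate 1 (limma, adjusted p = 0.0605). The most abundant, CTSL, was at 303 and 307 RPKM in knockdown and at 277 and 261 RPKM in wild type and did not pass (limma, adjusted p = 0.175), except under quantile normalization (log2 change 0.28; limma, adjusted p = 0.0291).

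Of 12 other aminopeptidases tested, 2 fell and 0 rose, against 7.03% lower and 15.3% higher over all tested genes. AOPEP, a further M1 enzyme, was at 10.7 and 10.3 RPKM in knockdown and at 13.3 and 14.7 RPKM in wild type, and TPP1, a lysosomal tripeptidyl peptidase, was at 6.16 and 5.96 RPKM in knockdown and at 7.99 and 7.93 RPKM in wild type (limma, adjusted p = 0.0303 and 0.0446). LTA4H, an M1 enzyme that also makes leukotriene B4, was at 61.0 and 63.1 RPKM in knockdown and at 59.2 and 52.5 RPKM in wild type and did not pass (limma, adjusted p = 0.31), nor did METAP2, a methionine aminopeptidase, at 28.0 and 36.0 RPKM in knockdown and 42.2 and 36.7 RPKM in wild type (limma, adjusted p = 0.131). METAP2 passed as lower with TMM-like factors and without knockdown replicate 2 (log2 change -0.38 and -0.48; limma, adjusted p = 0.0415 and 0.0305), and its difference was -0.13 without knockdown replicate 1. Among 8 dipeptidyl and prolyl peptidases tested, 1 fell, against 7.03% of all tested genes. This was PREP, prolyl oligopeptidase, at 9.40 and 10.1 RPKM in knockdown and 14.1 and 11.7 RPKM in wild type (limma, adjusted p = 0.0496). DPP7, at 60.7 and 53.3 RPKM in knockdown and 39.6 and 49 RPKM in wild type, did not pass (limma, adjusted p = 0.0629). DPP7 passed as higher under quantile normalization, without wild-type replicate 2 and without knockdown replicate 2 (log2 change 0.40, 0.51 and 0.45; limma, adjusted p = 0.0349, 0.0103 and 0.0374), and its difference was 0.21 without wild-type replicate 1.

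Of 2 genes of the neprilysin and ACE families tested, 1 fell, against 7.03% of all tested genes. ECE2, an endothelin-converting enzyme of the neprilysin family, fell to 1.26 and 1.01 RPKM in knockdown, against 1.77 and 2.12 RPKM in wild type (limma, adjusted p = 0.0228). ECE1, at 8.62 and 9.57 RPKM in knockdown and 7.29 and 7.32 RPKM in wild type, did not pass (limma, adjusted p = 0.0966). None of 9 oligopeptidases and none of 3 carboxypeptidases tested passed limma's test, against 15.3% called higher and 7.03% lower over all tested genes. Their most abundant members were PITRM1, a mitochondrial peptidase, at 26.7 and 27.2 RPKM in knockdown and 31.0 and 29 RPKM in wild type, and CTSA, a lysosomal carboxypeptidase, at 32.7 and 29.3 RPKM in knockdown and 28.4 and 30.3 RPKM in wild type (limma, adjusted p = 0.308 and 0.641). The calls of AOPEP, TPP1, PREP and ECE2 held in 5, 4, 3 and 7 of 10 alternative settings. With any 1 library left out, 1 or 2 other peptidases were called lower in place of 4: 1 without knockdown replicate 1, 1 without knockdown replicate 2, 2 without wild-type replicate 1 and 1 without wild-type replicate 2.

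**Figure D4:**
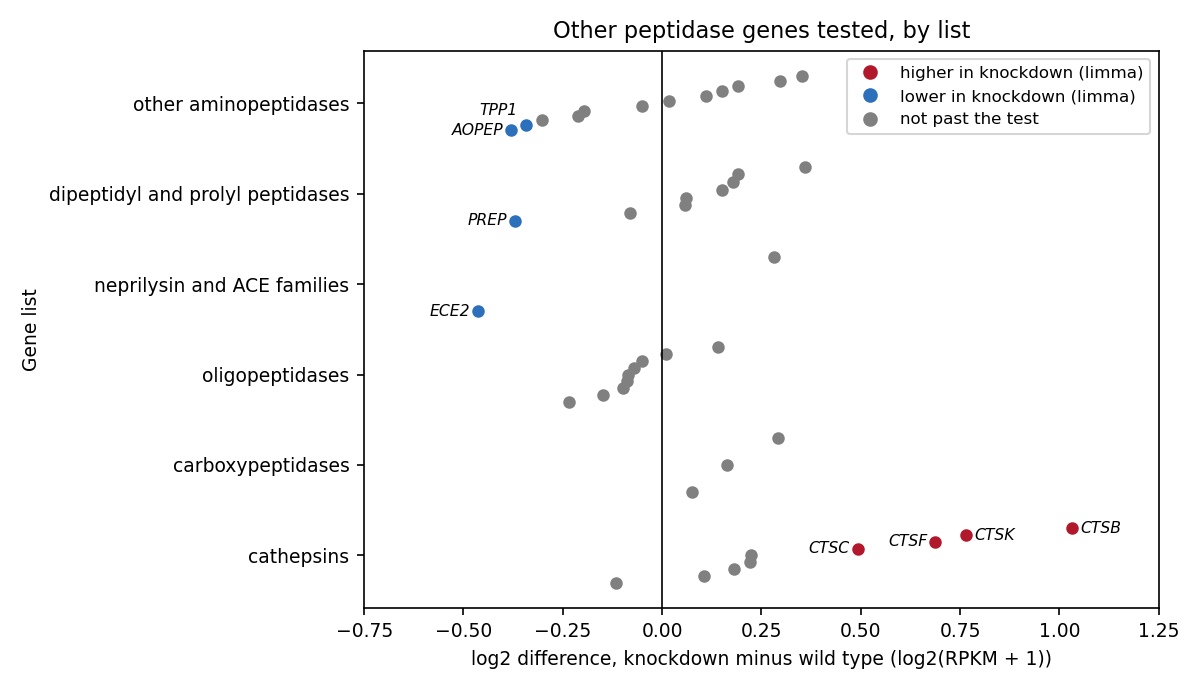
Difference of knockdown minus wild type on the log2(RPKM + 1) scale for the 43 other peptidase genes tested, one row of points per list, coloured by the limma call. The 4 genes called higher are cathepsins, up to 1.03 for CTSB, and the 4 called lower lie between -0.46 and -0.34.

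Markers of fibroblasts, which also carry aminopeptidase N, were low but higher in knockdown: 4 of 5 had a value, all 4 were above wild type in both knockdown libraries, and their summed level was 2.11 and 2.01 RPKM in knockdown and 0.561 and 0.838 RPKM in wild type, most of it THY1. DCN had no value to analyse, and LUM, PDGFRA and PDGFRB were at most 0.177 RPKM. Of 6 myeloid and lymphoid markers, 4 had a value, with 3 above and 1 below wild type, and their summed level was 4.04 and 4.08 RPKM in knockdown and 1.89 and 2.24 RPKM in wild type, most of it CD68. Epithelial markers moved the same way, with all 5 above wild type and a sum of 2448 and 2549 RPKM in knockdown and 1228 and 1357 RPKM in wild type. Over all 17041 genes, both knockdown libraries lay above both wild-type libraries in 35.8% and below them in 20.3%. PDGFRA and the myeloid marker CD33 held the value of a gene without reads in both wild-type libraries, so that few reads set their difference. The part of other cells in the ANPEP difference was not tested. Of 4 endothelial markers, 1 had a value, at 0.013 RPKM or less in every library.

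No splicing event of any of the 10 genes was among the 3768 events of 2166 genes for which PSI, the share of reads that use a junction, was given. That table lists only events whose PSI varied by at least 0.15 over the libraries, so that smaller differences in these genes could not be seen. DPP4, ENPEP and ERAP2 rested on 17 steps or fewer in every library, and MME was not analysed. In such genes larger differences could be missed as well. Of the 74 other peptidase genes, 3 had 4 events, and 0 of the 4 had an unadjusted limma p under 0.05 with a difference of 0.1 or more, against 18.4% of the 3744 events tested. They are named here after their values were seen. A junction of XPNPEP3, a mitochondrial aminopeptidase P, at chromosome 22, 40857245 to 40868999, had a PSI of 38.8% and 51.5% in knockdown and of 27.5% and 24.4% in wild type (limma, adjusted p = 0.281). DPP8 had a pair of cassette exon events, both with a lower PSI mean in knockdown and a single high value in wild-type replicate 2, and PREP had an event at its end with a PSI of 16.7% and 32.4% in knockdown and 17.4% and 11.4% in wild type (limma, adjusted p = 0.615, 0.665 and 0.534).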

How the data were processed

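Libraries were made with a stranded poly-A kit and sequenced as paired reads, per the labels' protocols. STAR 2.6.1 and hg38 are named in the submitters' processing notes, while the read counter, its annotation, its use of strand and the splicing caller were not given in the sources used here. Gene values were deposited in a form that fits RPKM (the unit is inferred from the values), and PSI was deposited as a fraction from 0 to 1. Gene names came from a table of IDs for 16921 of 17041 genes, from GENCODE v29 for 85, and 35 had none. All 1913 values above the shared value of a gene without reads, in the 1302 genes that show it, were whole multiples of a step within 0.001 of a step.

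Knockdown was compared with wild type with limma 3.58.1 (R 4.3.3; two-sided moderated test with a mean-variance trend and no covariate, Benjamini-Hochberg adjusted p under 0.05) on log2(RPKM + 1), over the 10182 genes with a group mean of 1 RPKM or more, and on PSI over 3744 events with 4 values (difference of 0.1 or more). The tests were run first on simulated data with known changes. Members and lists were chosen with earlier results of these data known. Genes named from each list were up to 3 past the test with the largest change and up to 2 of the highest level that did not pass; CTSC, the overlapping genes and the neighbours of ANPEP, untested markers and factors, and the splicing events were named outside that rule, after their values were seen. Alternatives were another pseudocount, no filter, other scalings, limma without trend, a replicate block and each library left out, which were planned, and a crossed replicate block added after the data were seen, which is not counted in the tallies of alternatives. Some genes of the list of promoter factors are not reported here.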

Additional observations from a re-analysis of the deposited data

How the results depend on the processing

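The difference of ANPEP lay between 2.25 and 2.98 over 7 alternatives. No called change of a named gene turned its direction under any alternative run, but CAST and the NPEPPSP1 pair were not part of this check. Over all genes, the count called lower was 716, and it was 322 with no filter on low values, 1223 with TMM-like factors and 413 to 657 with 1 library left out (413 without knockdown replicate 1 and 438 without knockdown replicate 2). The count of members other than ANPEP called higher, 2, was 1 with no filter, quantile normalization, TMM-like factors or limma without trend, and 1 to 2 with 1 library left out. The count of members called lower, 0, was 1 under quantile normalization (ERAP1) and 1 with TMM-like factors (LAP3). Of the other peptidases, the 4 called lower were 1 with no filter and 1 to 2 with 1 library left out. The 4 splicing events called were 0 in each case with 1 library left out. The causes were not tested. Quantile normalization gave 1140 genes higher and 1031 lower, against 1555 and 716, and TMM-like factors 1355 and 1223.

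Same-numbered libraries went in opposite directions from their group means (correlation -0.444 over 10182 genes), so the numbers are not taken to pair the samples. With the replicate number as a block, 1280 genes were higher and 438 lower, 1 member and 4 other peptidases were called higher, 0 members and 1 other peptidase lower, and 62 splicing events passed. With the crossed pairing, chosen after the data were seen, 2466 genes were higher and 1730 lower, 2 members were called higher and 1, LAP3, lower, 12 other peptidases higher and 7 lower, and 6 splicing events passed. DPP4, ENPEP and ERAP2 rested on 17 steps or fewer in every library, and the depth behind each PSI is unknown.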
